A study of Vitis vinifera with 74 samples.

Results

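A set of 263 genes of the grapevine 'Cabernet Franc' was chosen because its transcripts stood at least 4-fold higher in water-sprayed buds at 72 h than before treatment, and at least 2-fold below those buds at 48 and 72 h when abscisic acid (ABA) was sprayed. The choice used 3 measured values for each of the 42413 gene identifiers in the bud count table. These were the log2 ratio of control buds at 72 h to pre-treatment buds, which had to be at least 2, and the log2 ratio of ABA to control buds at 48 h and at 72 h, which both had to be at most -1. Each ratio was taken on mean CPM (the count divided by the total of its column, times 1000000) with 1 CPM added. In all, 594 genes passed the first criterion, and the 263 members were 44.3% of them. The other 331 control-raised genes serve below as the nearest comparison group.

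A dormant grapevine bud survives winter through cold hardiness, which it loses as it warms and resumes growth, a process called deacclimation. ABA is the plant hormone best known for closing stomata in drought and for holding seeds and buds in a resting state. It acts through receptors of the PYR/PYL/RCAR family, which on binding ABA inhibit type 2C protein phosphatases and so release SnRK2 protein kinases that change transcription.

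The bud experiment used single-node cuttings from dormant canes of field vines with more than 1200 chilling hours, forced in water at 22 °C with 16 h of light and 8 h of dark. At the woolly bud stage the cuttings received either S-ABA at 1322 mg per litre (5 mM) or, as controls, deionized water from a hand sprayer. Bud RNA was taken before treatment and 6, 12, 24, 48 and 72 h after each spray, giving 11 groups. In a second experiment, leaves of self-rooted vines in pots in a greenhouse received S-ABA at 500 mg per litre (1.9 mM) plus 0.05% Tween-20, or the surfactant alone, and were collected before treatment (8 libraries) and at 2, 4, 24 and 48 h (4 libraries in each of 8 groups). A cutting has no root and no rest of the vine, which limits it as a model of a bud on the plant. Transcripts were counted as tags from their 3′ ends, so CPM is a level per tagged transcript end and is not divided by gene length. The identifiers carry no gene names in the files or the gene table used here, so functions cannot be given. The genes are described by their behaviour, and 3 are printed by identifier under a rule for named genes.

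The 34 bud columns held 1526985 to 2616086 counts each and the 40 leaf columns 1321798 to 2414909. In 10 of the 11 bud groups the columns hardly differed beyond counting error (chi-square per degree of freedom 1.02 to 1.17, where 1 is counting error alone), and in the 48 h control by somewhat more (1.34 to 2.00). For this reason the columns of the 10 groups were summed by group and each group was taken as 1 sample. The 48 h control, which has 4 columns, was summed in the same way despite its larger differences. Without its column of replicate 4 the rule gave 259 genes, 255 of them among the 263. The summed libraries held 4923240 to 7698363 counts. A difference between buds at a single time thus has no replicate check and carries no p-value. The last bud time is taken as 72 h from the sample titles, although their descriptions hold a code of 75.

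The values that chose the genes describe a steep late rise. The log2 ratio of 72 h control to pre-treatment buds ran from 2.00 to 7.03 with a median of 2.65, which is 6.27-fold, and the highest was 131-fold. The median log2 ratio of ABA to control was -1.92 at 48 h and -1.83 at 72 h. For comparison, 3.33% of the 17466 genes with at least 1 CPM on average over the bud groups were at least 4-fold higher in the 72 h control. Among the same genes 11.1% were at least 2-fold lower with ABA at 48 h and 5.74% at 72 h. All genes together had a median in the 72 h control of 0.19 over pre-treatment on the log2 scale, and of 0.04 with TMM-scaled library sizes (trimmed mean of M values, a normalization less affected by a few abundant genes). Under TMM the rule would give 229 genes, 227 of them among the 263. Genes near the limits stood close together. On the 72 h rise the members nearest the limit had log2 ratios of 2.00 to 2.02, and the nearest genes outside it, which met the other criteria, had 1.95 to 1.99. On the ABA ratio the nearest members and outsiders stood at -1.05 to -1.02 against -0.99 to -0.95 at 48 h, and at -1.019 to -1.003 against -0.999 to -0.908 at 72 h. Of the 331 control-raised genes left out, 156 met the ABA criterion at 72 h only, 20 at 48 h only and 155 at neither time.

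In control buds most of the genes began their lasting rise between 12 and 48 h. The median log2 ratio to pre-treatment stood at 0.62 after 6 h, 0.53 after 12 h, 1.21 after 24 h and 1.75 after 48 h. At least 2-fold above pre-treatment were 59 of the 263 genes in the 6 h control (1.87% of all genes), 35 in that of 12 h (1.75% of all genes), 183 in that of 24 h (4.27%) and 251 in that of 48 h (8.58%). These counts share the pre-treatment library with the rule and are given as a description only. Taking the first time from which a gene stayed at least 2-fold up to 72 h, 17 genes started with the 6 h sample, 16 with that of 12 h, 150 with that of 24 h, 68 with that of 48 h and 12 with that of 72 h. The control level was lower at 12 h than at 6 h in 155 genes, or 58.9%, near the 51.6% of all genes. Later 251 genes were higher at 48 h than at 24 h and higher again at 72 h, a count not made over all genes. The 48 h and 72 h controls entered the rule, so this count too is a description only. In whole buds, fewer cells of a type and less RNA per cell cannot be told apart.

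**Figure D1:**
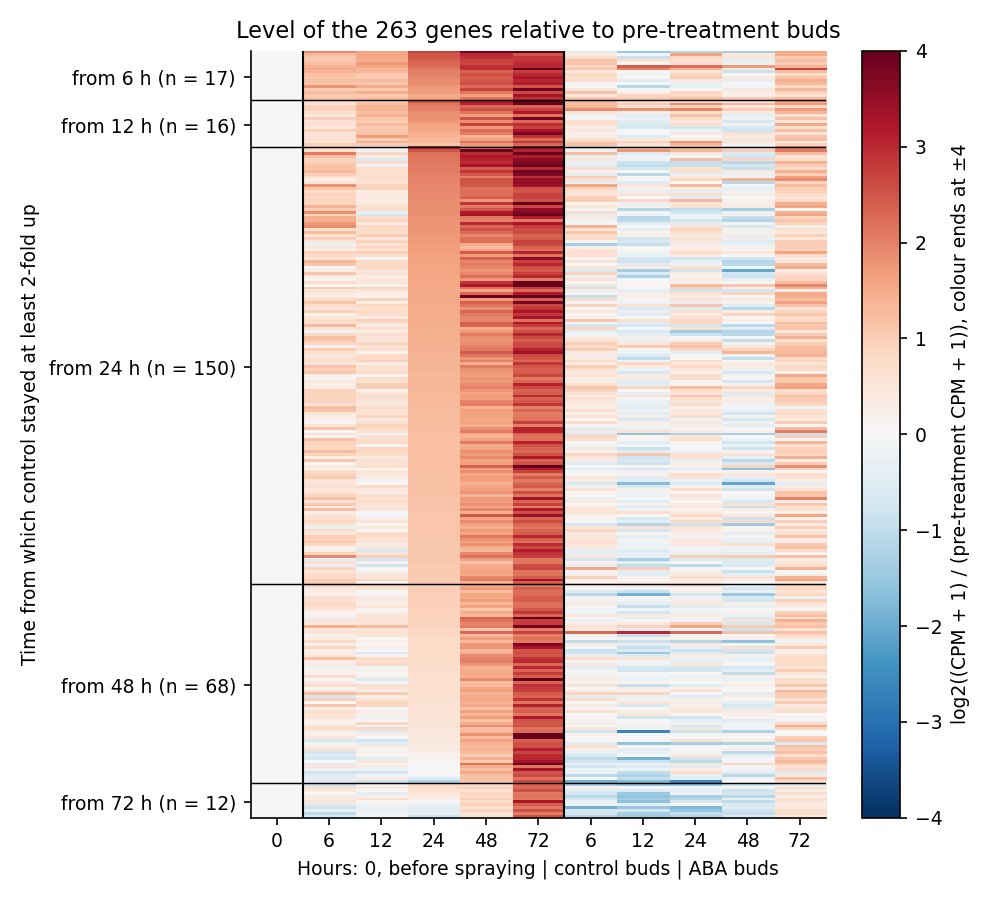
Level of each of the 263 genes (rows) in the 11 bud groups (columns), as log2 of CPM + 1 relative to pre-treatment buds, with colours ending at ±4. Rows are grouped by the time from which the control stayed at least 2-fold up; the control block deepens from 24 h to 72 h, while most rows of the ABA block stay pale until 72 h.

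With ABA the 263 genes stood near their starting level up to 48 h and higher at 72 h. The median log2 ratio of ABA buds to pre-treatment was 0.25, -0.21, 0.27, -0.14 and 0.87 at 6, 12, 24, 48 and 72 h. At 48 h, 229 of the 263 genes lay within 2-fold of pre-treatment, 25 were at least 2-fold below it (11.9% of all genes) and 9 at least 2-fold above it (16.4% of all genes). In ABA buds 253 genes were higher at 72 h than at 48 h, 131 of them at least 2-fold (10.4% of all genes). The median log2 step was 1.00 in ABA buds and 0.86 in control buds over the same interval, against 0.22 and 0.04 for all genes. At 72 h, 101 genes had reached at least 2-fold above pre-treatment (15.4% of all genes) and 3 at least 4-fold. The ABA level at 72 h was below the 48 h control in 260 genes and below the 24 h control in 198. The pre-treatment, 48 h and 72 h values entered the rule, so these counts are a description and nothing is read from them against all genes.

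Together the 263 genes made up a growing part of the bud counts in controls. Their share of all counts was 1.30% before treatment. In controls it was 2.46%, 1.95%, 3.37%, 4.88% and 8.85% at 6, 12, 24, 48 and 72 h, the last of which is 6.83-fold the starting share. In ABA buds it was 1.85%, 1.18%, 1.75%, 1.05% and 2.03% at the same times, ending at 1.56-fold the starting share. The 95% Clopper-Pearson intervals of these shares reach at most 0.0241 percentage points above the value and cover counting error only. The control share exceeded the ABA share by 1.33, 1.65, 1.93, 4.67 and 4.37 times over the same series. The 331 other control-raised genes followed another order. Their share was 0.567% before treatment and 3.66% in the 72 h control. Up to 48 h it was higher with ABA than in controls, at 1.18%, 1.90%, 2.02% and 2.82% against 1.13%, 0.882%, 1.27% and 2.20%. At 72 h that order had turned, with 1.90% in ABA buds. The single columns overlapped at 6 h, with 1.147% to 1.216% in ABA buds and 1.108% to 1.153% in controls. Gene by gene, 178 of the 331 were lower with ABA at 48 h and 153 higher, with a median log2 ratio of -0.15. The 331 are the genes that failed the ABA criteria, so at 48 and 72 h the contrast between the sets is fixed by the choice, whereas the values at 6, 12 and 24 h did not enter it.

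**Figure D2:**
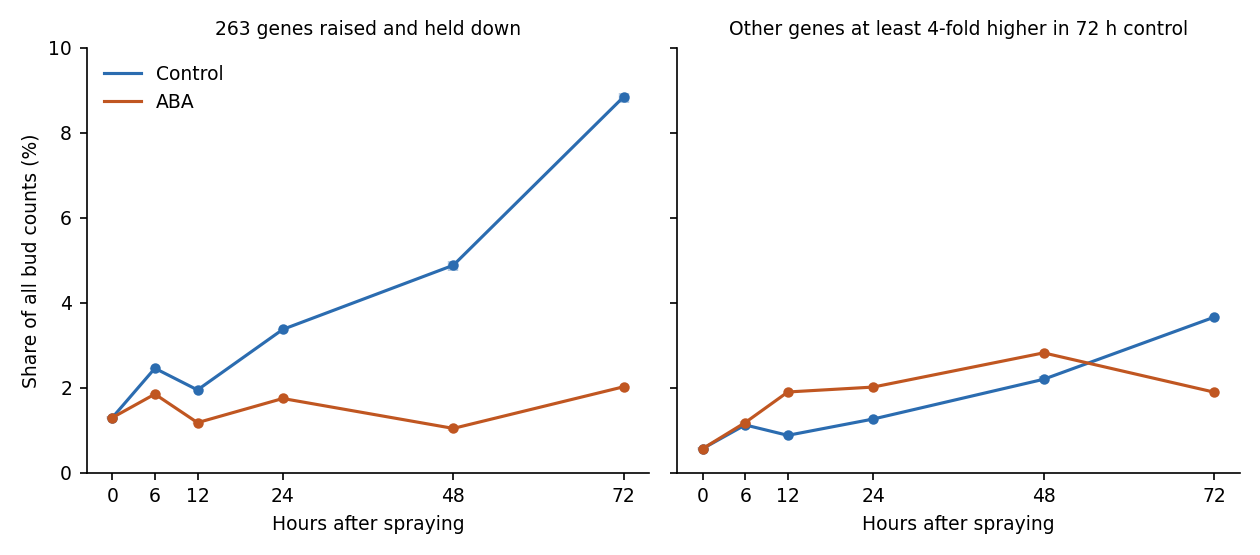
Share of all bud counts (%) held by the 263 genes (left) and by the 331 other control-raised genes (right) against hours after spraying, with 1 point per summed library; thick bars, mostly hidden by the points, span the single columns of a group. On the left the control climbs from 1.30% to 8.85% while ABA ends at 2.03%. On the right the summed ABA share lies above the control up to 48 h, with overlapping single columns at 6 h.

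The bud libraries at 6, 12 and 24 h after ABA and after water were not used to choose the genes. In them the median ABA difference was already present and widened with time. The median log2 ratio of ABA to control was -0.39, -0.72 and -0.99 in time order. The medians of all genes were -0.01, -0.22 and -0.12, and those of the other control-raised genes 0.13, 0.38 and 0.09. Under the scaling to column totals the median of all genes was thus below 0 at 12 and 24 h, and 1 gene stood at 77105 CPM in the 12 h ABA buds. With TMM-scaled library sizes the medians of all genes were -0.03 at 12 h and -0.02 at 24 h, and those of the 263 genes -0.53 and -0.91.

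At least 2-fold lower with ABA were 40 of the 263 genes at 6 h, which is 15.2%, where 3.97% of all genes were. At 12 h there were 88, or 33.5%, against 16.6% of all genes, and at 24 h 130, or 49.4%, against 8.09%. The opposite direction was rare. With ABA 1, 2 and 1 genes were at least 2-fold higher at 6, 12 and 24 h, where 8.73%, 12.0% and 8.41% of all genes were. A total of 180 genes were lower with ABA at all 3 early times, or 68.4%, against 33.7% of all genes, and 24 were at least 2-fold lower at all 3, against 1.36%. Another 108, or 41.1%, were not 2-fold lower at any of them, against 79.5% of all genes. The ratio was lower at 24 h than at 6 h in 226 genes, against 57.0% of all genes. It fell both from 6 to 12 h and from 12 to 24 h in 102 genes, or 38.8%. That count was not made over all genes, so nothing is read from it. Of the 331 other control-raised genes, 71 were lower with ABA at all 3 times, or 21.5%.

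**Figure D3:**
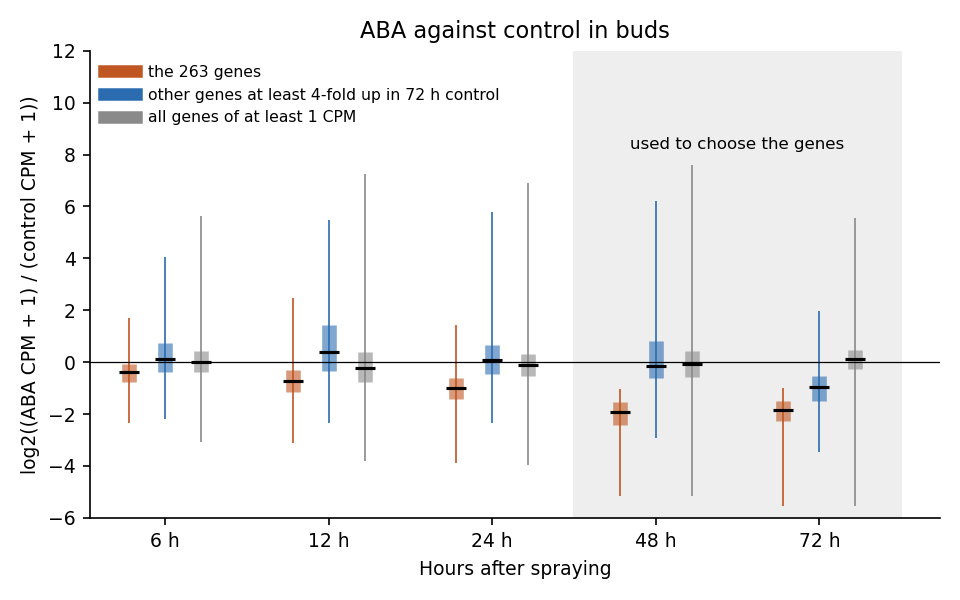
Log2 ratio of ABA to control level in buds (CPM + 1) at each time for the 263 genes, the 331 other control-raised genes and all 17466 genes of at least 1 CPM on average; black marks are medians, thick bars quartiles and thin lines the full range. The shaded times were used to choose the genes; outside them the median of the 263 genes runs from -0.39 at 6 h to -0.99 at 24 h.

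The early ABA effect was tested over the 3 ABA and 3 control libraries of 6, 12 and 24 h with the time as block (quasi-likelihood test of edgeR, Benjamini-Hochberg adjustment over all 15691 genes tested, adjusted p under 0.05). Its error term is thus how much the ABA effect varied from time to time, and no spread between separate buds of one time enters. Of the 263 genes 217 had enough counts to be tested and 46 did not. A gene could pass this filter through the control libraries alone, so the counts describe the genes tested. With ABA 73 fell (9.06% of all genes fell) and 1 rose (13.1% of all genes rose). Of the 73, 53 were at least 2-fold lower. Their log2 changes ran from -3.00 to -0.65 with a median of -1.24, and their adjusted p-values from 9.84e-05 to 0.0496. Of the 260 other control-raised genes tested, 18 fell and 82 rose. Without the 24 h pair, in a fit with 4 libraries, 29 of the 263 genes fell (4.92% of all genes) and 1 rose (10.7% of all genes).

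The single gene called higher ran against the rest early and with them late. It is described here although it lies outside the rule for named genes, and was picked after its values were seen. In ABA buds it stood at 8.90, 16.2 and 9.02 CPM at 6, 12 and 24 h, against 2.08, 2.10 and 2.69 CPM in controls. By 48 and 72 h the order had turned, with 3.53 and 3.64 CPM in ABA buds against 9.26 and 12.8 CPM in controls. Its log2 change over the early times was 2.37 ± 0.35 (SE, edgeR adjusted p = 0.00102).

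The ABA difference at 24 h varied with the time at which the control had started. For the 17 genes up from 6 h the median log2 ratio of ABA to control at 24 h was -1.47, for the 16 genes up from 12 h it was -1.09, for the 150 up from 24 h -1.12, for the 68 up from 48 h -0.66 and for the 12 up from 72 h -0.91. These groups were formed from the same control libraries that enter the ratio, so the order is a description only. Across the 263 genes, the ABA ratio at 24 h had a Spearman rho of 0.45 with that at 6 h, 0.45 with that at 12 h and 0.55 with that at 48 h. The size of the rise by 72 h had a rho of -0.13 with the ABA ratio at 24 h. These are correlations across genes of the same libraries, and genes are not independent replicates.

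A few abundant genes carried much of the summed level. In the 72 h control the 263 genes ran from 3.33 to 5494 CPM with a median of 48.4. There were 24 genes below 10 CPM, 150 from 10 to 100, 67 from 100 to 1000 and 22 at 1000 CPM or more. The top 10 held 42.8% of the summed level and the top 50 held 84.6%. Among the 22 most abundant genes the median ABA to control log2 ratio at 6, 12 and 24 h was -0.48, -0.79 and -0.96, close to the -0.39, -0.66 and -1.01 of the 150 genes of 10 to 100 CPM. In the 24 genes below 10 CPM it was -0.17, -0.25 and -0.60, where the added 1 CPM understates a change. At low levels 22 genes were at 0 in at least 1 bud group.

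The top 10 genes by 72 h control level were not uniform. Of these, 6 were called lower with ABA at 6 to 24 h. The most abundant of all had 860 CPM before treatment and in controls 974, 1298, 2298, 3503 and 5494 CPM at 6, 12, 24, 48 and 72 h. In ABA buds it stood at 1421, 1750, 1947, 1161 and 1921 CPM. It was thus above its control at 6 and 12 h and below it from 24 h on, and its early log2 change of 0.38 ± 0.24 (SE) did not pass the test (edgeR adjusted p = 0.292).

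The gene with the largest rise in control buds among those of at least 5 CPM on average was Vitvi14g01763. Its pre-treatment columns stood at 15.0, 17.0 and 21.7 CPM. Its mean control level was 24.0, 20.2, 53.5, 331 and 2470 CPM at 6, 12, 24, 48 and 72 h, and at the last time the columns ran from 2329 to 2564 CPM. In ABA buds the means were 9.27, 20.1, 22.4, 17.1 and 52.3 CPM at the same times. The ABA level of Vitvi14g01763 at 48 h was thus near that before treatment, and the columns of ABA and control overlapped at 12 h only. Such overlap or separation of bud columns is measured against little more than counting error, and not against a spread between buds. At 48 and 72 h the rule itself set the ABA level below the control. The control was 19.3-fold above ABA at 48 h and 47.3-fold at 72 h. Over 6 to 24 h the ABA change of Vitvi14g01763 was -0.74 ± 0.31 (log2, SE) and did not pass the test (edgeR adjusted p = 0.110). It passed without the 12 h pair (-1.24, adjusted p = 0.0118), without a count filter (0.0380) and with all columns treated as replicates (0.00157), though those columns hardly differ beyond counting error. It did not pass without the 6 h pair (-0.49, adjusted p = 0.305), without the 24 h pair (-0.54, 0.417), with RLE size factors (0.105), with DESeq2 (0.143) or with 1 column of each group left out (0.0900 to 0.130).

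The lowest change at 6 to 24 h belonged to Vitvi10g01636, a gene nearly absent from the leaf libraries. Its pre-treatment columns stood at 124, 127 and 154 CPM. Its control means were 516, 417, 905, 1892 and 3705 CPM at 6, 12, 24, 48 and 72 h. With ABA it was 101, 47.5, 60.6 and 52.1 CPM from 6 to 48 h and 386 CPM at 72 h. From 6 h to 48 h the ABA level was below pre-treatment, and no ABA column reached a control column at any of the 5 times. This separation too is measured against little more than counting error, and not against a spread between buds. The control exceeded ABA by 5.13, 8.78, 14.9, 36.3 and 9.60 times over the 5 times. Over 6 to 24 h the log2 change of Vitvi10g01636 was -3.00 ± 0.30 (SE, edgeR adjusted p = 9.84e-05), and lower at 3 of 3 times.

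A different course was that of Vitvi11g00089, the gene with the lowest adjusted p among those lower with ABA in leaves. Its pre-treatment bud columns stood at 533, 549 and 560 CPM. Its control means were 779, 478, 1276, 1591 and 2744 CPM at 6, 12, 24, 48 and 72 h. With ABA they were 344, 178, 235, 218 and 297 CPM, below the pre-treatment level at every time. The columns of ABA and control did not overlap at any time, again against little more than counting error. The log2 change of Vitvi11g00089 over 6 to 24 h was -1.55 ± 0.28 (SE, edgeR adjusted p = 0.00297).

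**Figure D4:**
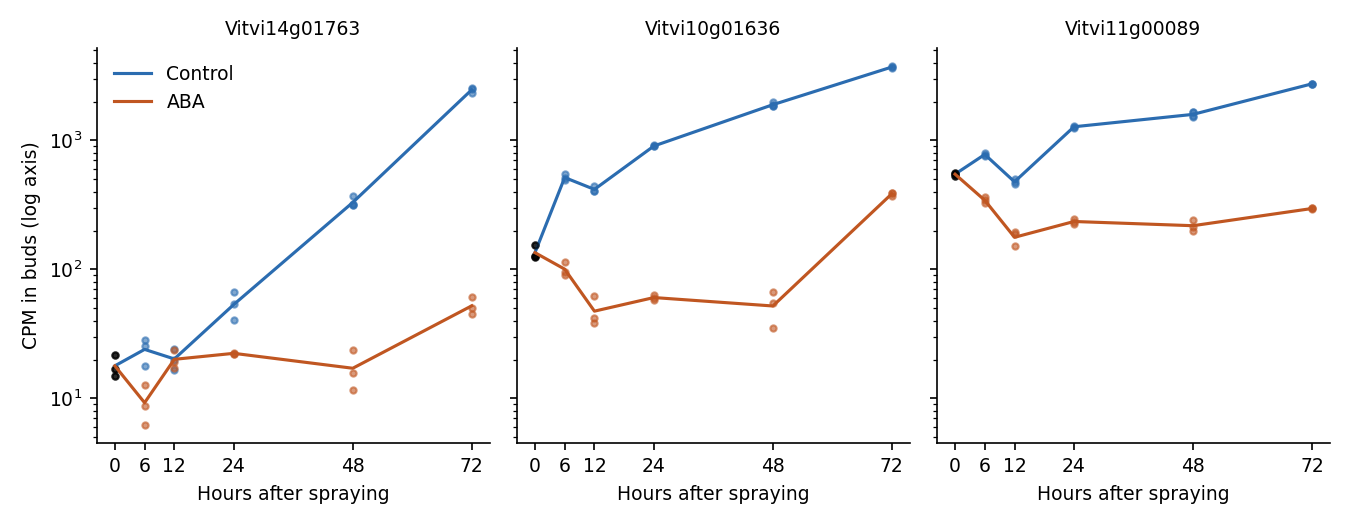
Level (CPM, log axis) of Vitvi14g01763, Vitvi10g01636 and Vitvi11g00089 in every bud column against hours after spraying; lines join group means and black points are the pre-treatment columns. The ABA and control columns of Vitvi14g01763 overlap at 12 h only, and those of Vitvi10g01636 and Vitvi11g00089 at no time. Columns of a group differ by little more than counting error and show no spread between buds.

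In leaves, which the rule did not use, the same genes were abundant. Before treatment they held 13.9 ± 1.11% of leaf counts (SD, n = 8), against 1.30% of the counts in pre-treatment buds and 8.85% in the 72 h control buds. The other control-raised genes also held more in leaves, at 5.24 ± 0.360% (SD, n = 8) against 0.567% and 3.66% in the same bud groups. Their median leaf level was 51.5 CPM, against 16.3 CPM for the other control-raised genes and 10.3 CPM for all genes. Of the 263 genes, 212, or 80.6%, had a higher level in pre-treatment leaves than in pre-treatment buds, against 73.4% of the other control-raised genes and 41.2% of all genes. A higher level than in the 72 h control buds was found for 131, or 49.8%, and for 137, or 41.4%, of the other control-raised genes. Both bud levels entered the rule, so nothing is read from these shares. Leaves and buds came from separate experiments and differ in plant, year and read length (85 bp and 75 bp), so these levels are set side by side without a test.

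Within the 263 genes leaf level and bud level went together loosely, with a Spearman rho of 0.61 across genes between pre-treatment leaves and 72 h control buds. At one end 29 genes exceeded 1000 CPM in leaves, and the top 5 held 41.1% of their leaf level. The highest stood at 25694 CPM in pre-treatment leaves, 506 CPM in pre-treatment buds, 4510 CPM in the 72 h control and 762 CPM in the 72 h ABA buds. At the other end 25 genes, or 9.51%, were below 1 CPM in every leaf group, near the 10.3% of the other control-raised genes. Of the 263 genes, 4 had no leaf count at all. Vitvi10g01636 was among the lowest. It had no count in 4 of the 9 leaf groups, and its leaf group means were at most 3.80 CPM. The 4 libraries of the second flow cell held 54 of its counts and the other 36 held 4, and the part of the flow cell in these levels was not tested.

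The summed leaf share of the 263 genes overlapped between ABA and control. At 2 h the share was 13.0 ± 2.24% in controls and 13.8 ± 0.951% with ABA (SD, n = 4 in each group here and below). At 4 h it was 14.9 ± 1.55% and 12.5 ± 1.58%, at 24 h 13.7 ± 0.767% and 12.1 ± 1.76%, and at 48 h 16.3 ± 1.81% and 14.8 ± 1.63%. At each of the 4 times the ranges of ABA and control libraries overlapped. Without control replicate 3 of 4 h, which stood at 17.3%, the control share at 4 h was 14.2 ± 0.262% (SD, n = 3).

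Few single genes were called in leaves, nearly all of them lower with ABA. The edgeR quasi-likelihood test set ABA against control leaves of the same hour over the 13378 genes with enough counts, which included 217 of the 263. At 2 h no member was called (edgeR, 0.0897% of all genes higher and 0.00747% lower), and DESeq2 called 0 as well. An unadjusted edgeR p under 0.05 was found for 14 of the 217 members and for 1035 of all 13378 genes. At 4 h 13 genes fell (0.673% of all genes fell) and 0 rose (0.882% rose). Their log2 changes ran from -2.17 to -0.64 with a median of -1.30 (edgeR adjusted p 0.00640 to 0.0433). At 4 h the log2 change was below 0 in 182 of the 217 genes. Among the other control-raised genes it was below 0 in 171 of 261, and among all genes in 6687 of 13378. The median of the 217 genes was -0.37, against 0.00 for all genes and -0.26 for the other control-raised genes. At 24 h 2 fell (1.18% of all genes fell) and 1 rose (1.97% rose). The 24 h share of genes that fell was thus near that of all genes. At 48 h 3 fell (0.65% fell) and 0 rose (1.56% rose). The medians over the 217 genes were -0.01, -0.04 and -0.06 at 2, 24 and 48 h, and each of these changed sign under some alternatives.

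The 4 h count depended on single libraries. It was 6, 4 and 4 without ABA replicates 1, 3 and 4, and 8 and 1 without control replicates 2 and 3. Control replicate 3 is the library whose summed share of the 263 genes stood at 17.3%, above the others of its group. DESeq2 called 22. At 48 h the count was 11 without ABA replicate 1. A second flow cell held 4 of the 40 leaf libraries, namely 1 control of 2 h, 1 ABA library of 24 h and 2 ABA libraries of 48 h. At 24 and 48 h it held no control, so flow cell and ABA are partly confounded there. Without these libraries the counts were 20, 6 and 1 at 4, 24 and 48 h, all lower with ABA. A fit that included a flow cell term called 18, 3 and 2. The 1 gene that rose at 24 h (log2 change 0.94, edgeR adjusted p = 0.0457) was not called higher without those libraries.

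Over the 4 leaf times 17 of the 217 genes fell at least once, or 7.83%, against 4.60% of the other control-raised genes (12 of 261) and 2.18% of all genes. The count was 10, 8 and 8 without ABA replicates 1, 3 and 4 of 4 h, and 6 without control replicate 3 of 4 h. In that order these were 4.59%, 3.67%, 3.67% and 2.75% of the members tested. For the other control-raised genes the shares were then 2.65%, 2.27%, 3.42% and 1.14%, and for all genes 1.72%, 1.72%, 1.80% and 1.69%. The difference from the other control-raised genes thus depended on single libraries. With DESeq2 it was 29, and 26 without the second flow cell. Of the 17, 1 fell at more than 1 time. Of the 217, 1 rose at 1 time. Of the 73 genes that fell in buds at 6 to 24 h, 62 were tested in leaves, and 7 of these, or 11.3%, also fell there at some time while 0 rose. Among all genes that fell in buds the share was 7.30% (78 of 1068). Of the 17, 13 were tested in buds, and the 7 are 53.8% of those, against 29.5% (78 of 264) over the whole table. These 2 shares have unlike base rates. Among genes tested in both tissues, 62 of 186 members fell in buds, against 1068 of 12399 over the whole table. The higher share in members is thus not read as a closer match of leaves and buds. The 7 became 3 to 4 without any one of those 4 libraries of 4 h. Both tissues could be tested for 186 of the 263 genes, and 15 were tested in neither.

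The gene that fell at more than 1 leaf time was Vitvi11g00089. Its 8 pre-treatment leaf libraries ran from 843 to 2313 CPM with a median of 1503. At 24 h its controls ran from 1175 to 2955 CPM and its ABA libraries from 386 to 882 CPM. At 48 h they ran from 1638 to 2638 and from 425 to 1014 CPM. The groups did not overlap at either time. The log2 change of Vitvi11g00089 was -1.80 ± 0.35 at 24 h (SE, edgeR adjusted p = 0.00189) and -1.79 ± 0.35 at 48 h (adjusted p = 0.00312), lower in 4 of 4 ABA libraries at both times. Without the second flow cell the 48 h change was -1.52 (adjusted p = 0.0532). At 2 h it was -0.86 (adjusted p = 0.571) and at 4 h -0.43 (adjusted p = 0.596), with overlapping libraries.

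Vitvi14g01763, the steepest riser in buds, was well expressed in leaves and was not called there at any time. It stood at 675 ± 278 CPM (SD, n = 8) before treatment, and its leaf group means ran from 529 to 1173 CPM. Its log2 change with ABA was 0.05, -0.23, 0.49 and 0.10 in time order (edgeR adjusted p 0.532 to 0.982). The sign at 2, 4 and 48 h changed when 1 library was left out. The spread between libraries of a group was wide, and these values do not show that ABA had no effect on it in leaves.

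**Figure D5:**
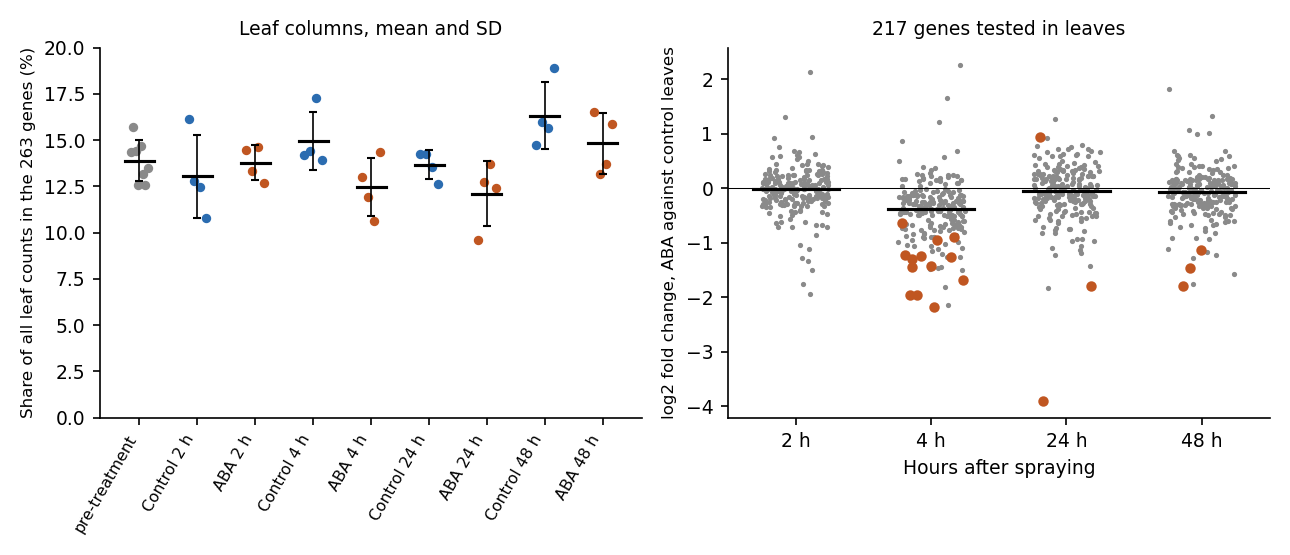
Left, share of leaf counts (%) held by the 263 genes in each leaf library (grey before treatment, blue control, orange ABA), with mean and SD. Right, log2 change with ABA of the 217 genes tested in leaves at each time, with the median as a line and genes at an edgeR adjusted p under 0.05 in orange; the shares overlap at each time, and the 13 genes called at 4 h lie between -2.17 and -0.64.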

How the data were processed

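The authors deposited raw read counts per gene, which are whole numbers, in 1 bud table of 34 columns and 1 leaf table of 40 columns. All columns were used. Per the submitters' processing notes FastQC, STAR and DESeq2 were used, with no version or role. The genome build, annotation, strand setting and treatment of tags shared by gene copies were not given in the sources used here, so values of genes that have near-identical copies or antisense neighbours are uncertain. Per the labels' protocols, each library was sequenced in triplicate on a NextSeq500 from a QuantSeq 3′ kit.

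Bud columns were compared by chi-square over genes with at least 20 counts and added up within a group. Bud ratios used mean CPM with 1 CPM added. Tests used edgeR 4.0.16 in R 4.3.3 (quasi-likelihood, TMM, filterByExpr with a minimum count of 10, adjusted p under 0.05, SE taken as the log2 change over the square root of F), fitted on whole tables and tested on simulated data. The leaf model had 1 mean for each of 9 groups. Alternatives used DESeq2 1.42.0, RLE size factors, no count filter, other pseudocounts (0.5 and 5 CPM), a flow cell term and left-out columns. The labels tie no leaf library to a vine, so each p-value reflects how these libraries vary, which may be technical. Among the leaf headers 4 pre-treatment names occur 2 times each, so these 8 columns entered by group without a replicate number.

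The members and lists were chosen with earlier results of these data known. None of the 42413 identifiers matched the gene table at hand (assembly ASM3070453v1). Named genes, of at least 5 CPM on average over the bud groups, are the gene with the largest control rise, the lowest in the 6 to 24 h bud test, and the lowest adjusted p among those higher and among those lower with ABA in leaves. The third of these rules gave none.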

Additional observations from a re-analysis of the deposited data

Results flagged for a closer look

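Of 36 leaf groups of values looked at (the share of counts held by the 263 genes and the levels of the 3 named genes), 7 had 1 library set apart from the others of its group. About 1 in 20 groups of continuous values is set apart by chance. That rate does not apply to groups in which nearly all libraries are at 0, as for Vitvi10g01636.

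The share of counts held by the 263 genes was 17.3% in 1 control library of 4 h, where the group's lowest was 13.9% and its median 14.3%. This is control replicate 3, without which the 4 h test called 1 of the 263 genes in place of 13. For Vitvi14g01763, 1 control library of 24 h stood at 801 CPM, with a group median of 457 CPM.

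Vitvi10g01636 was nearly absent from leaves, and 5 of the 7 cases are single libraries with a few counts of it. The set-apart libraries stood at 14.0 CPM in the 2 h controls, 5.82 CPM with ABA at 48 h, 3.05 CPM with ABA at 24 h, 0.661 CPM in the 24 h controls and 0.478 CPM before treatment. The medians of those groups were 0.585, 0.231, 0, 0 and 0 CPM. The 3 highest of these libraries came from the second flow cell, whose 4 libraries each held 1 to 33 counts of the gene. In the first flow cell 4 of 36 libraries held 1 count each. The part of the flow cell was not tested.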

How the results depend on the processing

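The rule gave 263 genes, and 135 with 5 CPM added in place of 1. The medians of ABA against control at 12 and 24 h were -0.7786 and -1.0829 with 0.5 CPM added, and -0.5346 and -0.9113 with TMM scaling. With 5 CPM added the medians at 6, 12 and 24 h were -0.2097, -0.4155 and -0.6527. The bud test called 74 members, 30 without the 24 h pair and 128 with all columns treated as replicates. In the last setting 159 members were tested, and 123 were called lower and 5 higher. Of all 12204 genes tested in it, 3733 were called lower and 3741 higher, so calls rose over the whole table. In leaves the main counts were 13, 3 and 3 at 4, 24 and 48 h. Without the second flow cell they were 20, 6 and 1, and DESeq2 gave 22 at 4 h and 6 at 24 h. Without a count filter 5 were called at 24 h. Leaving out 1 replicate at a time gave 249 to 271 genes by the rule, 60 to 66 in the bud test, 1 to 12 in leaves at 4 h, 2 to 4 at 24 h and 2 to 11 at 48 h. Alternatives for the 17 genes that fell at any leaf time were chosen after seeing the data. They gave 29 with DESeq2, 26 without the second flow cell, and 6 to 24 with 1 library left out. For Vitvi11g00089 the 48 h leaf change was -1.52 without the second flow cell. The cause of these shifts was not tested. All other alternatives for counts and medians (108) stayed within their limits. The signs of called values were compared for the 3 named genes only, and none of those changed. The leaf medians of the members did change sign: they ran from -0.07 to 0.12 at 2 h, -0.11 to 0.05 at 24 h and -0.17 to 0.02 at 48 h. So did the uncalled leaf changes of Vitvi14g01763 when 1 library was left out, at -0.05 to 0.20, -0.48 to 0.07 and -0.15 to 0.25 at 2, 4 and 48 h.

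Leaf replicate numbers did not pair the libraries: same-numbered libraries correlated over 0.1 in 2 of 16 pairs (median -0.047). With the replicate block 0, 13, 5 and 4 members were called at 2, 4, 24 and 48 h. The bud test pairs ABA and control by time, and its replicate numbers were not used as a block because each group counted as 1 sample. In each tissue 46 members had too few counts to be tested.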
